A study of Mus musculus with 17 samples.

Results

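Transcripts of 10 circadian clock genes were followed across haematopoietic stem cells (HSCs) of young and old mice that had or had not been given a compound acting on mitochondria. The genes were Arntl, Clock, Bhlhe40, Per1, Per2, Cry1, Cry2, Nr1d1, Nr1d2 and Dbp, chosen by symbol and matched to the Ensembl identifiers of the count files through an annotation of build GRCm38. They are 10 of the 54838 genes in the files, and all 10 were among the 24523 genes with enough reads to be tested. All libraries came from bone marrow HSCs of C57BL/6 Jrj mice, sorted as lineage-negative cells positive for c-Kit, Sca1 and CD150 and negative for CD48, and each group is 1 combination of age and treatment. Old Mito-Q libraries (n = 5) came from mice over 18 months of age given 5 daily intraperitoneal injections of Mito-Q, an antioxidant built on ubiquinone and drawn into mitochondria, at 2 mg/kg. Old control libraries (n = 3) came from mice of the same age labelled as controls. Young CCCP libraries (n = 5) came from mice 8 to 12 weeks old given 1 intraperitoneal injection of CCCP, a protonophore that uncouples mitochondria, at 0.3 mg/kg. Young control libraries (n = 4) came from mice of the same age labelled as controls. All mice were kept in a 12-hour light and 12-hour dark cycle. The hour of collection, the time since the last injection, any vehicle given to controls and whether each library was a separate mouse are not given in the sources used here. The p-values hence describe variation among libraries, which may be partly technical, and in bulk RNA fewer cells with a transcript and less RNA per cell cannot be told apart.

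The mammalian clock is a transcriptional feedback loop present in nearly every cell. CLOCK and BMAL1, the product of Arntl, bind E-box sequences and switch on the Per and Cry genes, whose proteins return to the nucleus and inhibit CLOCK and BMAL1. They also switch on Nr1d1 and Nr1d2, which encode the REV-ERB repressors of Arntl, as well as Dbp, a transcription factor that carries the rhythm to output genes, and Bhlhe40, which encodes the repressor DEC1. In mouse tissues such as liver, Nr1d1 and Dbp transcripts peak in the light phase and Per2 later, while Arntl transcripts peak near the opposite phase. Per1 and Bhlhe40 also respond within minutes to hours to signals that raise cAMP, activate CREB or induce immediate early genes, outside their daily rhythm.

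Libraries held 5649611 to 8120443 reads in genes, so the detection floor of 3 reads lay at 0.369 to 0.531 CPM, that is, reads scaled to library size. Reads not assigned to a single gene made up 37.7% of reads in old control 2 and 76.2% in young CCCP 3. Young CCCP 3 stood apart, with a median Spearman correlation to the other libraries of 0.682, and young control 3 (0.803) and old control 1 (0.799) were the next lowest. The remaining libraries lay between 0.828 and 0.863. All 8 genes expected from the HSC sort were tested, and they summed to between 1683 and 4378 CPM per library. The 9 expected to be absent, such as Cd48, Cd3e and Ly6g, summed to 2.44 to 46.4 CPM in old Mito-Q and 2.09 to 18.3 CPM in old control. They summed to 21.1 to 90.6 CPM in young CCCP and 6.53 to 21.4 CPM in young control. Ly6g averaged 9.13, 2.19, 19.8 and 1.97 CPM in these groups, in that order. In old Mito-Q and in old control, 1 of the 9 had no read in any library. Genes of neutrophil granules summed to 983 to 14235 CPM in old Mito-Q, 1089 to 2393 CPM in old control, 762 to 16321 CPM in young CCCP and 416 to 2198 CPM in young control, with the widest ranges in the treated groups. Against young control edgeR called 0.718% of all tested genes in young CCCP, 1.69% in old control and 0.143% in old Mito-Q. It called 0.542% of them in old Mito-Q against old control. Of the 10 granule genes edgeR called 1 higher in each of the comparisons with young control and 0 in old Mito-Q against old control. The called gene was Elane in young CCCP, and it was Prtn3 in old control (1015 CPM, against 216 CPM in young control, edgeR adjusted p = 0.00017) and in old Mito-Q (651 CPM, edgeR adjusted p = 0.0132). At an unadjusted p below 0.05 edgeR placed 9 granule genes in young CCCP and 9 in old Mito-Q against young control. It placed 3 in old control against young control and 5 in old Mito-Q against old control. Of all 24523 tested genes 2735, 1935, 3487 and 2464 had such a p in these comparisons, in that order. The 10 granule genes had median log2 fold changes of 3.70, 3.15, 0.74 and 2.43 in that order. For all genes these medians were 0.21, 0.01, 0.16 and -0.12. Erythroid genes summed to 143 to 1391 CPM in young CCCP and 66.6 to 246 CPM in young control. The part of either in the clock gene values was not tested.

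The 10 genes were unequal in level and in how far they varied. Per kilobase of exon and averaged over the 17 libraries, Bhlhe40 was highest at 39.5 CPM per kb, then Per1 at 20.3 and Nr1d2 at 10.8. The other 7 lay close together, between 5.47 CPM per kb for Cry2 and 2.58 for Clock. The same 3 leading genes were the members that passed a test in any comparison, and this average includes the groups where they were high. In old control Per1 averaged 2.13 CPM per kb, below Clock at 2.20, and Bhlhe40 4.11, below Cry2 at 4.60. Between its lowest and highest library Bhlhe40 differed 67.6-fold, Nr1d1 29.7-fold and Per1 29.0-fold, while Cry2 differed 6.23-fold. Cry1 had no read in 1 library and Dbp no read in 2 libraries.

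**Figure D1:**
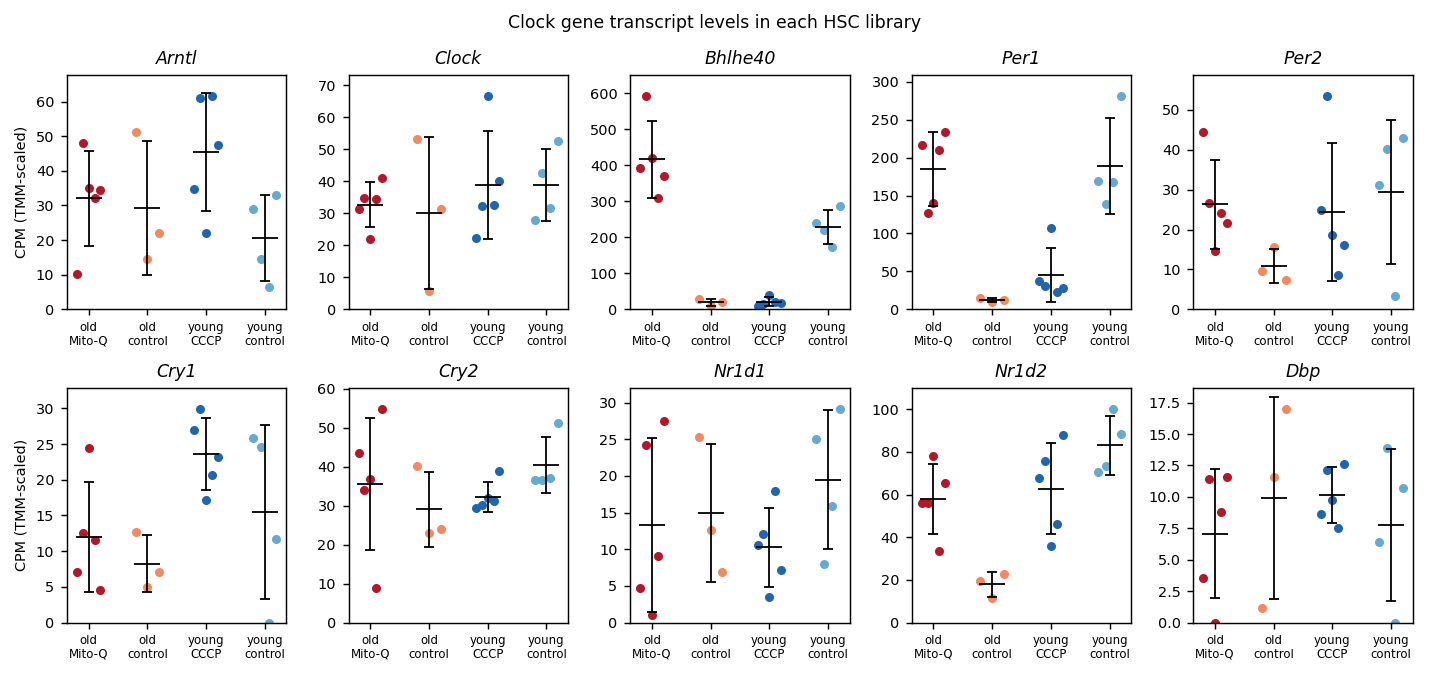
Levels of the 10 clock genes in each HSC library, in CPM with TMM scaling on the y axis and the 4 groups on the x axis. Points are libraries, horizontal lines are group means and bars are SD. Bhlhe40, Per1 and Nr1d2 show groups that stand apart, with old control low in all 3, while the other panels overlap broadly.

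Old control HSCs held less Per1, Bhlhe40 and Nr1d2 transcript than young control HSCs. These 3 of 10 members fell and none rose, where 1.69% of all tested genes were called and 1.17% were called lower. Old Mito-Q HSCs held more of the same 3 transcripts than old control HSCs, and no member fell, against a background of 0.542% of genes called and 0.526% called higher. Young CCCP HSCs held less Bhlhe40 and Per1 than young control HSCs, so 2 of 10 members fell and none rose, with 0.718% of all genes called and 0.652% called lower. Between old Mito-Q and young control no member was called by edgeR, limma-voom or DESeq2, 1 member had an unadjusted p below 0.05 (Bhlhe40), and 0.143% of all genes were called. An unadjusted p below 0.05 was reached by 1935 of all 24523 tested genes in that comparison. Calls are adjusted p below 0.05 in edgeR's quasi-likelihood test with Benjamini-Hochberg adjustment over all genes tested. The comparisons share control libraries, since young control enters 3 of them and old control enters 2, so they are not independent of each other.

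The median log2 fold change of the 10 members was -0.69 in old control against young control, beside 0.16 for all genes. It was 0.41 in old Mito-Q against old control, beside -0.12 for all genes. It was -0.30 in young CCCP against young control, beside 0.21, and -0.17 in old Mito-Q against young control, beside 0.01.

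**Figure D2:**
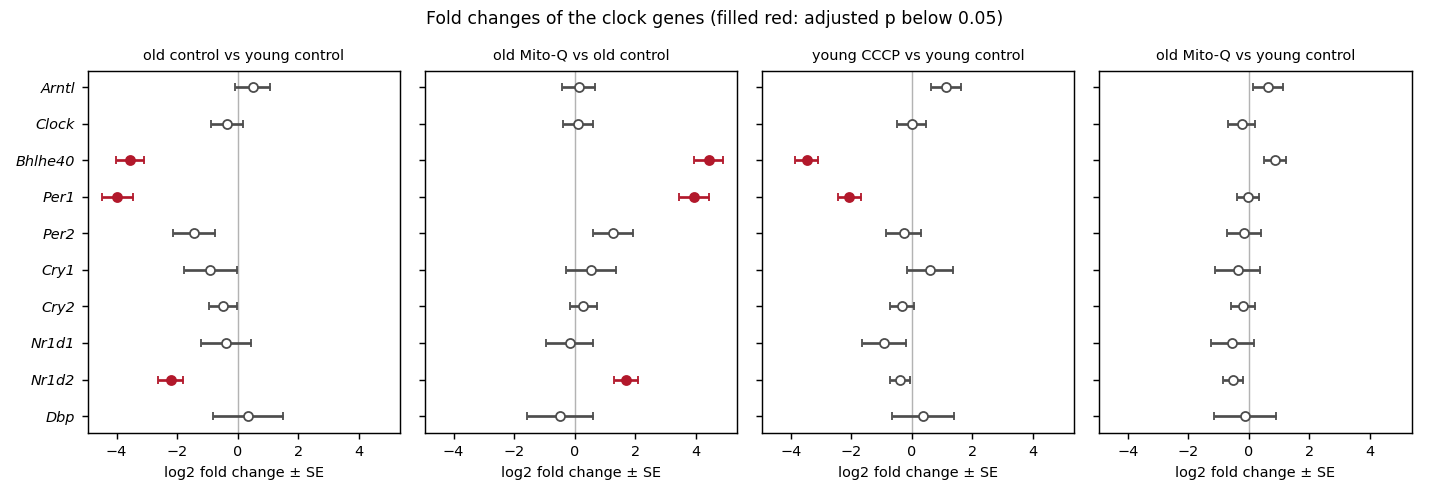
Log2 fold changes of the 10 clock genes with standard errors (x axis) in the 4 comparisons (panels), from edgeR's quasi-likelihood fit. Filled red points are genes with an adjusted p below 0.05. Per1 and Bhlhe40 lie at -3.97 and -3.56 in old control against young control and at 3.94 and 4.42 in old Mito-Q against old control.

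The start regions of 4 members are shown because these genes, linked in 1 loop, differ in the elements found near the start and in whether they were called. RefSeq (GRCm38.p6) start regions, from 250 bases before to 50 after the annotated start, were held for 8 of the 10 members as 12 entries, with none for Per2 and Bhlhe40. Capitals mark a motif found on either strand. The motifs searched were the E-box CACGTG, the D-box TTATGTAA, the REV-ERB and ROR element core TAGGTCA and the cAMP response element TGACGTCA. The first Per1 start (chr11:69098699-69098998, plus strand) and Cry1 (chr10:85185005-85185304, minus strand) hold an E-box. The second Arntl start (chr7:113207261-113207560, plus strand) holds a REV-ERB and ROR element core, and Nr1d2 (chr14:18239057-18239356, minus strand) holds none of the 4. The entries not shown also hold none: the second Per1 start, the first Arntl start, Cry2, Nr1d1, Dbp and all Clock starts.
Per1 start 1: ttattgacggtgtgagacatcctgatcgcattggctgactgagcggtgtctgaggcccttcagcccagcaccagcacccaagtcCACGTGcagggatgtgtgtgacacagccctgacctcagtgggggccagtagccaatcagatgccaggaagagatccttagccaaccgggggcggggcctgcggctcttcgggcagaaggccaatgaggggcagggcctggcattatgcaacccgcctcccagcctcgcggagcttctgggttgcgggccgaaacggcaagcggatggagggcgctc
Cry1: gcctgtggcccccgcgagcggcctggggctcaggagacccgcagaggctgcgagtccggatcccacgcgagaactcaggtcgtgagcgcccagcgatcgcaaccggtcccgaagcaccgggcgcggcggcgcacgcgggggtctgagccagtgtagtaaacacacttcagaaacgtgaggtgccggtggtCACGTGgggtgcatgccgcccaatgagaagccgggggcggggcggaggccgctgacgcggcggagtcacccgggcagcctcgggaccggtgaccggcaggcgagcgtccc
Arntl start 2: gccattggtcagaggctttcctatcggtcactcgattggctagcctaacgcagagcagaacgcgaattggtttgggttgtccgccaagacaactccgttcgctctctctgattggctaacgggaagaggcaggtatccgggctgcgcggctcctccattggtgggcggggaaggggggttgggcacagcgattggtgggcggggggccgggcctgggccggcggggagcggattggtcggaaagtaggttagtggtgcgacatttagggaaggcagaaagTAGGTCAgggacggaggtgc
Nr1d2: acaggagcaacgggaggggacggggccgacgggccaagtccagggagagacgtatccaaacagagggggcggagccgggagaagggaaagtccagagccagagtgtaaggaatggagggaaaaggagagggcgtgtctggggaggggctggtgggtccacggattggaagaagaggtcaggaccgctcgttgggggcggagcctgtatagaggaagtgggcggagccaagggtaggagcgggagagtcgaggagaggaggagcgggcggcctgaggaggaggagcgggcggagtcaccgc
Counting the first transcribed base as 0, the E-box starts at -166 in Per1 and at -60 in Cry1, and the Arntl element starts at 30. Of 32851 start regions of the same length, 7.15% held CACGTG, 0.938% TTATGTAA, 2.61% TAGGTCA and 1.79% TGACGTCA. The first Per1 start and Cry1 thus share an exact E-box in this window. Per1 passed the test in 3 comparisons and Cry1 in none, but the SE of Cry1 ran from 0.75 to 0.88, so a change could be missed. The part of the E-box in these values was not tested. A match is a description of letters and not of binding, and a motif outside the window was not searched.

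Arntl encodes BMAL1, the partner of CLOCK. Arntl stood at 10.2, 48.2, 35.1, 32.2 and 34.6 CPM in old Mito-Q libraries and at 51.3, 14.5 and 21.9 CPM in old control libraries. Young CCCP libraries held 34.8, 61.1, 22.2, 61.7 and 47.3 CPM of it, and young control libraries 28.9, 14.6, 6.31 and 33.1 CPM. Groups overlapped throughout, and the largest difference was in young CCCP, with a mean of 45.4 ± 17.1 CPM (SD, n = 5) against 20.7 ± 12.4 CPM in young control (n = 4). Its log2 fold change there was 1.13 (SE 0.51), with an unadjusted p of 0.0367 and an adjusted p of 0.415 in edgeR's quasi-likelihood test with Benjamini-Hochberg adjustment, so it was not called. Old Mito-Q averaged 32.1 ± 13.7 CPM (n = 5) and old control 29.2 ± 19.5 CPM (n = 3).

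Clock encodes the DNA-binding partner of BMAL1 and was the member of lowest level per kilobase averaged over the 17 libraries. Its means were 32.7 ± 6.90 CPM in old Mito-Q (SD, n = 5), 30.2 ± 23.8 CPM in old control (n = 3), 38.8 ± 16.8 CPM in young CCCP (n = 5) and 38.7 ± 11.2 CPM in young control (n = 4). No pair of groups differed beyond this spread. The 3 old control libraries held 53.3, 5.71 and 31.5 CPM, and their SD on the log2 scale was 1.65, against a median of 0.56 for genes of like level in that group.

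Per1 encodes a PERIOD repressor. It stood at 216, 127, 140, 210 and 234 CPM in old Mito-Q libraries, against 14.3, 9.71 and 12.0 CPM in old control libraries. In young CCCP libraries it stood at 37.9, 30.2, 108, 22.3 and 28.0 CPM, against 169, 139, 167 and 282 CPM in young control libraries. Every old Mito-Q library lay above every old control library, as in 3.87% of all tested genes. All old control libraries stood below all young control libraries, as in 6.5% of all tested genes, and so did every young CCCP library, as in 2.89% of them. Bhlhe40 and, outside the young CCCP comparison, Nr1d2 were separated in the same way. Old Mito-Q averaged 186 ± 48.7 CPM (SD, n = 5), old control 12.0 ± 2.28 CPM (n = 3), young CCCP 45.2 ± 35.3 CPM (n = 5) and young control 189 ± 63.1 CPM (n = 4).

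By edgeR's quasi-likelihood test with Benjamini-Hochberg adjustment, Per1 in old control against young control fell, at -3.97 on the log2 scale (SE 0.50, adjusted p = 2.9e-05). It was higher in old Mito-Q than in old control by 3.94 (SE 0.50, adjusted p = 2.26e-05). It fell in young CCCP against young control, at -2.07 on that scale (SE 0.38, adjusted p = 0.00296). The log2 fold change between old Mito-Q and young control was -0.03 (SE 0.37), and these groups overlapped. Young CCCP 3, the library that stood apart, had the highest Per1 level of its group, and without it the young CCCP difference was -2.68 on the log2 scale. In a fit of only young CCCP and young control libraries the adjusted p of Per1 was 0.0728 in edgeR's quasi-likelihood test, which is not a call.

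Per2 encodes a second PERIOD repressor and was lower in level than Per1. It stood at 44.5, 26.6, 14.5, 24.2 and 21.6 CPM in old Mito-Q libraries and at 9.63, 15.6 and 7.43 CPM in old control libraries. It stood at 24.9, 53.5, 18.7, 8.69 and 15.996 CPM in young CCCP libraries and at 31.1, 40.1, 3.26 and 43.0 CPM in young control libraries. All groups overlapped, with old control lowest on average at 10.9 ± 4.24 CPM (SD, n = 3) and young control 3 the lowest library. The log2 fold change was -1.43 (SE 0.68, unadjusted p = 0.0464, adjusted p = 0.345) in old control against young control and 1.27 (SE 0.66, adjusted p = 0.538) in old Mito-Q against old control, neither called by edgeR's quasi-likelihood test with Benjamini-Hochberg adjustment. In the young CCCP comparison it was -0.27 (SE 0.57) and in old Mito-Q against young control -0.16 (SE 0.57). Without young control 3 and young CCCP 3 the old control difference was -1.81 with an adjusted p of 0.0594 in the same edgeR test, still not called.

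Cry1 and Cry2 encode the cryptochromes, which inhibit CLOCK and BMAL1 together with the PERIOD proteins. Cry1 stood at 7.02, 12.6, 24.5, 11.6 and 4.54 CPM in old Mito-Q libraries and at 12.7, 4.95 and 7.07 CPM in old control libraries. In young CCCP libraries it stood at 26.9, 29.9, 17.1, 20.6 and 23.2 CPM, and in young control libraries at 25.9, 24.6, 0 and 11.6 CPM. Young CCCP had the highest mean at 23.5 ± 5.04 CPM (SD, n = 5), against 15.5 ± 12.2 CPM in young control (n = 4), where young control 3 had no read, and the groups overlapped. Cry1 was not called in any comparison, with log2 fold changes between -0.91 (SE 0.88) in old control against young control and 0.60 (SE 0.76) in young CCCP against young control. Its SD in young control on the log2 scale was 3.09, against a median of 0.89 for genes of like level.

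Cry2 had the smallest fold range over the libraries among members with reads in all of them. It averaged 35.5 ± 16.95 CPM in old Mito-Q (SD, n = 5), 29.1 ± 9.56 CPM in old control (n = 3), 32.3 ± 3.83 CPM in young CCCP (n = 5) and 40.5 ± 7.23 CPM in young control (n = 4). No comparison was called, and its log2 fold changes lay between -0.48 in old control against young control and 0.29 in old Mito-Q against old control. Within young CCCP its SD on the log2 scale was 0.16, against 0.57 for genes of like level.

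Nr1d1 encodes REV-ERB alpha, a repressor of Arntl. It stood at 4.77, 24.2, 0.981, 9.11 and 27.5 CPM in old Mito-Q libraries and at 25.3, 12.6 and 6.90 CPM in old control libraries. In young CCCP libraries it stood at 10.5, 12.0, 3.50, 18.0 and 7.20 CPM, and in young control libraries at 25.0, 8.05, 15.9 and 29.1 CPM. The libraries of each group were spread over much of the range of all 17, old Mito-Q most of all, with an SD on the log2 scale of 1.83 against 0.78 for genes of like level. No comparison was called. The largest difference was -0.92 on the log2 scale (SE 0.72, adjusted p = 0.693 by edgeR's quasi-likelihood test with Benjamini-Hochberg adjustment) in young CCCP against young control, followed by -0.55 (SE 0.71) in old Mito-Q against young control. Its exons share 263 bases with Thra on the opposite strand, 8.55% of their length, and the strand setting of the counting is not given in the sources used here, so reads of the shared part cannot be told apart.

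Nr1d2 encodes REV-ERB beta, the related repressor. It stood at 55.9, 56.3, 78.3, 33.7 and 65.2 CPM in old Mito-Q libraries, against 19.3, 11.6 and 22.99 CPM in old control libraries. In young CCCP libraries it stood at 67.7, 75.6, 36.0, 46.3 and 88.0 CPM, against 70.6, 73.3, 100.1 and 88.5 CPM in young control libraries. Old control lay below the other 3 groups in every library. Old Mito-Q averaged 57.9 ± 16.3 CPM (SD, n = 5), old control 18.0 ± 5.80 CPM (n = 3), young CCCP 62.7 ± 21.3 CPM (n = 5) and young control 83.1 ± 13.8 CPM (n = 4).

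Nr1d2 fell in old control against young control, at -2.21 on the log2 scale (SE 0.41, adjusted p = 0.0030, edgeR's quasi-likelihood test with Benjamini-Hochberg adjustment). Without old control 2 it was -2.001 with an adjusted p of 0.0730 in the same edgeR test, so it was not called there. That fit called 125 of all genes, against 415 with every library. Nr1d2 kept its call in this comparison in 16 of 17 alternatives. In old Mito-Q against old control it was higher by 1.69 (SE 0.39) on the log2 scale, with an adjusted p of 0.0399 by the same edgeR test. That call sits near the threshold, since it was lost in 7 of 8 edgeR fits that left out 1 library, at log2 fold changes of 1.48 to 1.95, and was kept only without old Mito-Q 4. Under the other scalings, filters and tests the adjusted p of Nr1d2 in that comparison ran up to 0.198, reached with limma-voom, and without old control 2 the edgeR value was 0.379, while the log2 fold change stayed near its value. In young CCCP against young control it was -0.41 (SE 0.33), and in old Mito-Q against young control -0.52 (SE 0.33), neither called.

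Dbp encodes the D-box factor that drives many rhythmic output genes. It stood at 3.51, 11.4, 0, 8.79 and 11.6 CPM in old Mito-Q libraries and at 1.19, 11.6 and 16.98 CPM in old control libraries. Young CCCP libraries held 8.64, 12.2, 9.72, 7.50 and 12.6 CPM, and young control libraries 6.44, 13.9, 0 and 10.7 CPM. All 4 groups overlapped, and the libraries at 0 were old Mito-Q 3 and young control 3. No comparison was called, with log2 fold changes between -0.49 (SE 1.099) and 0.38 (SE 1.03), so a change of several fold in either direction lies within the error. Dbp was even across young CCCP libraries, with an SD on the log2 scale of 0.31 against 1.06 for genes of like level, and uneven in young control at 2.60 against 1.17. Its exons share 539 bases, 18.0% of their length, with Sphk2 on the opposite strand.

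Bhlhe40 encodes DEC1, which represses CLOCK and BMAL1 targets and is also induced by hypoxia and by many outside signals. It stood at 393, 592, 420, 309 and 369 CPM in old Mito-Q libraries, against 29.5, 8.76 and 19.8 CPM in old control libraries. In young CCCP libraries it stood at 8.83, 15.1, 40.4, 21.3 and 18.1 CPM, against 239, 220, 172 and 287 CPM in young control libraries. Old control and young CCCP formed a low range with no library above 40.4 CPM, and the lowest library of old Mito-Q and young control held 172 CPM. Old Mito-Q averaged 417 ± 106 CPM (SD, n = 5), old control 19.4 ± 10.4 CPM (n = 3), young CCCP 20.8 ± 11.9 CPM (n = 5) and young control 229 ± 47.6 CPM (n = 4).

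By edgeR's quasi-likelihood test with Benjamini-Hochberg adjustment, Bhlhe40 fell in old control against young control, at -3.56 on the log2 scale (SE 0.47, adjusted p = 4.27e-05). It was higher in old Mito-Q than in old control by 4.42 (SE 0.48, adjusted p = 3.47e-06), the largest member difference in these data. It fell in young CCCP against young control, at -3.47 on that scale (SE 0.38, adjusted p = 1.38e-06). Every old Mito-Q library also lay above every young control library, as did 1.65% of all tested genes, and the log2 fold change of 0.86 (SE 0.36) had an unadjusted p of 0.0248 and an adjusted p of 0.563 in the same edgeR test, so it was not called.

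The other genes of the clock were described from a list of 12 core genes, all tested. By edgeR 0 of the 12 were called in the other 3 comparisons. There 4 (old control against young control), 2 (old Mito-Q against old control) and 2 (old Mito-Q against young control) had unadjusted p below 0.05. Of all 24523 tested genes, 3487, 2464 and 1935 had an unadjusted p below 0.05 in these comparisons, in that order. In young CCCP against young control 2735 did, and the same background applies to the lists that follow. In young CCCP against young control 1 was called: Ciart, which encodes the repressor CHRONO, fell. It stood at 1.89, 1.49, 3.69, 6.91 and 0.48 CPM in young CCCP libraries, against 21.9, 48.3, 18.7 and 31.9 CPM in young control libraries, with no overlap. Its log2 fold change was -3.38 (SE 0.72, adjusted p = 0.0172, edgeR's quasi-likelihood test with Benjamini-Hochberg adjustment). Old control libraries of Ciart also lay below all young control libraries, at 6.19, 1.33 and 7.60 CPM, at -2.58 on the log2 scale and not called (adjusted p = 0.139 in the same edgeR test). In old Mito-Q it stood at 10.4, 32.2, 5.39, 22.9 and 34.3 CPM and overlapped old control, with a log2 fold change of 2.05 (adjusted p = 0.373, edgeR).

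The other core genes named here did not pass the test in any of the 4 comparisons. Per3, the third PERIOD gene, averaged 36.8 CPM in old Mito-Q, 37.0 CPM in old control, 60.1 CPM in young CCCP and 43.2 CPM in young control. Hlf, a D-box factor related to Dbp that also marks HSCs, averaged 277 CPM in old control against 476 CPM in young control, with every old control library below every young control library (log2 fold change -0.78, edgeR adjusted p = 0.184). Old Mito-Q libraries averaged 346 CPM of Hlf, at a log2 fold change of -0.46 against young control (edgeR adjusted p = 0.675). Tef, the third D-box factor of this family, averaged 13.96 CPM in old Mito-Q, 13.7 CPM in old control, 33.7 CPM in young CCCP and 28.0 CPM in young control. Nfil3, the repressor that competes with these at D-boxes, averaged 20.4 CPM in old Mito-Q against 3.86 CPM in old control, with no overlap (log2 fold change 2.41, edgeR adjusted p = 0.475).

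Rora and Rorb encode activators that bind the same element as the REV-ERB repressors. Rora averaged 39.7 CPM in young CCCP against 62.0 CPM in young control with no overlap, at -0.64 and an edgeR adjusted p of 0.425. Old control libraries of Rora, averaging 44.4 CPM, also lay below those of young control (-0.48, edgeR adjusted p = 0.591). Rorb averaged 11.006 CPM in old control against 2.56 CPM in young control with no overlap, as in 5.04% of all tested genes, at 2.08 on the log2 scale and an edgeR adjusted p of 0.315. In old Mito-Q it averaged 15.3 CPM, again above young control in every library (log2 fold change 2.55, edgeR adjusted p = 0.544), so neither gene was called. Timeless, whose mammalian product acts mainly in DNA replication, averaged 45.4 CPM in young CCCP against 15.03 CPM in young control with no overlap, as in 1.78% of all tested genes (log2 fold change 1.59, edgeR adjusted p = 0.377). Npas2, Arntl2 and Bhlhe41, the close relatives of Clock, Arntl and Bhlhe40, averaged between 1.53 and 7.03 CPM over the 4 groups.

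**Figure D3:**
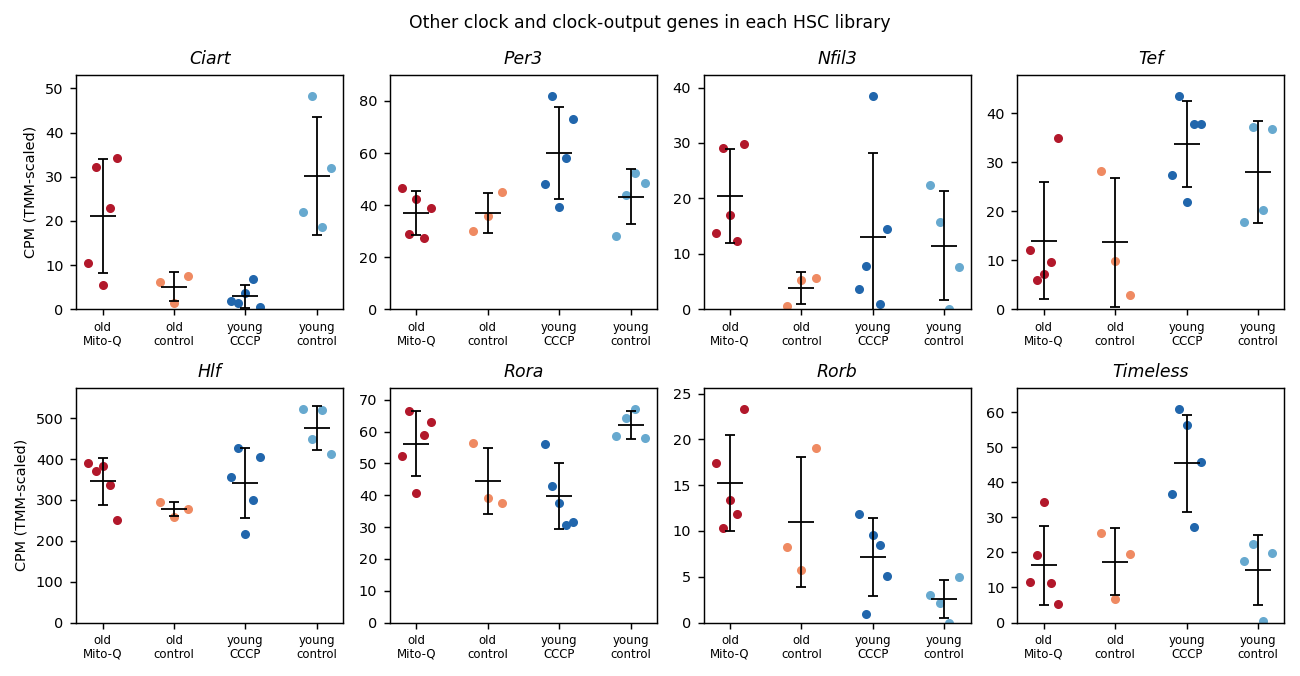
Levels of 8 other clock and clock-output genes in each HSC library, in CPM with TMM scaling on the y axis and the 4 groups on the x axis. Points are libraries, horizontal lines are means and bars are SD. Young CCCP lies between 0.48 and 6.91 CPM for Ciart, below all young control libraries, and Ciart is the gene of these 8 that passed the test.

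Enzymes and cofactors that act on clock proteins, a list of 20 tested genes, gave calls in 1 comparison. In old control against young control 2 fell: Fbxw11, a subunit of a ubiquitin ligase that targets PERIOD proteins, with a log2 fold change of -1.94 (edgeR adjusted p = 0.0300), and Usp7, a deubiquitinase that acts on CRY1, with -1.20 (edgeR adjusted p = 0.0325). In the other 3 comparisons edgeR called 0 genes of this list, while 5 (old Mito-Q against old control), 5 (young CCCP against young control) and 1 (old Mito-Q against young control) had an unadjusted p below 0.05. The kinases that phosphorylate PERIOD proteins are on this list and were not among those called.

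Of 14 tested output genes, 3 fell in old control against young control, 2 rose in old Mito-Q against old control, 4 fell in young CCCP against young control and 0 were called in old Mito-Q against young control by edgeR, where 1 had an unadjusted p below 0.05. The called genes were Klf9, Klf10, Cdkn1a and Ciart, and the last is also counted among the core genes. Klf9, a transcription factor induced by glucocorticoids, had log2 fold changes of -1.68, 2.10 and -2.23 in those 3 comparisons, and all were called. Klf10, a TGF-beta inducible factor, fell by 2.31 and 2.40 on the log2 scale in old control and young CCCP against young control. Cdkn1a, which encodes the cell cycle inhibitor p21, had log2 fold changes of -4.33, 4.67 and -4.93 and was called in all 3.

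Genes that respond to outside signals moved in the same comparisons as Per1 and Bhlhe40. Of 20 tested immediate early genes, 16 fell in old control against young control, 17 rose in old Mito-Q against old control, 18 fell in young CCCP against young control and 0 were called by edgeR in old Mito-Q against young control, where 10 had an unadjusted p below 0.05. Their summed level ran from 18172 to 31236 CPM in old Mito-Q libraries, 1164 to 2093 CPM in old control, 505 to 874 CPM in young CCCP and 9461 to 16770 CPM in young control. The median log2 fold changes of that list were -3.60, 4.41, -4.32 and 0.74 in the same order. Fos, a subunit of AP-1, averaged 4772 CPM in old Mito-Q, 51.0 CPM in old control, 15.03 CPM in young CCCP and 1952 CPM in young control. Egr1, a zinc finger factor, averaged 2078, 120, 41.2 and 1330 CPM in these groups, and Nr4a1, an orphan nuclear receptor, 2338, 9.49, 13.7 and 2606 CPM. Old Mito-Q and young control were the high groups in these genes as they were for Bhlhe40 and Per1, and the part of this response in the Per1 and Bhlhe40 values was not tested.

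Of 11 tested targets of cAMP and CREB, 7 fell, 7 rose, 7 fell and 0 were called by edgeR in the 4 comparisons in the same order (3 at an unadjusted p below 0.05 in the last), and 3 of the 7, Fos, Nr4a1 and Dusp1, are also on the immediate early list. Of 9 tested genes induced by glucocorticoids, whose hormone is itself rhythmic, 3 fell, 3 rose, 3 fell and 0 were called by edgeR (1 at an unadjusted p below 0.05 in the last). Those 3 were Klf9, Cdkn1a and Dusp1, which stand on other lists as well. Fkbp5, a chaperone widely used to read glucocorticoid response, averaged 50.8 CPM in old Mito-Q, 38.4 CPM in old control, 72.2 CPM in young CCCP and 68.2 CPM in young control and was not called. Old control libraries of Fkbp5 lay below all those of young control, as in 6.5% of all tested genes. Tsc22d3 and Zbtb16, induced by the same hormone, were not called in any of the 4 comparisons. All 9 listed genes stood lower in old control than in young control and higher in old Mito-Q than in old control. In young CCCP against young control 6 stood lower and 3 higher. Median log2 fold changes of the list were -1.74, 2.10, -0.84 and 0.41 in the same order. For all genes they were 0.16, -0.12, 0.21 and 0.01.

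The genes whose pattern over the 17 libraries was most like that of each member were found among 9573 genes by the root mean square difference of log2 CPM, each centred on its own mean. Per1 was most like Sik1, a salt-inducible kinase, at 0.64, and Cpeb2, an RNA-binding protein, at 0.71, beside a root mean square spread of 1.62 for Per1 itself. Bhlhe40 was most like Nfkbid, an inhibitor of NF-kappa-B, at 0.52, and Ppp1r15a, a stress-induced phosphatase subunit, at 0.60, beside its own spread of 2.14. Nr1d2 was most like Esyt2 at 0.39 and Nup153 at 0.40, beside its own spread of 0.84. Cry1 was most like Kif4 at 0.56 and Timeless at 0.57, beside 1.56.

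Per2 was most like Pom121 and Pik3r4, Cry2 like Pvr and Arl2bp, Nr1d1 like Hccs and Pex5, Arntl like Pcyt2 and Rbbp5, and Clock like Nudcd3 and Gak. Dbp was most like Fut7 at 0.68 and Plpp7 at 0.90, beside 1.78 for Dbp itself. These likenesses describe 17 libraries that share depth and scaling, and say nothing of shared control.

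Whether the pattern hints at different hours of collection was asked of ratios to Arntl within each library, since genes of opposite phase should move apart when the hour differs. The ratios are log2 of reads with a pseudocount of 1, they share their denominator, and they are given as a description without a test. How many of all genes separate these groups by their ratio to Arntl was not counted. Arntl itself averaged 45.4 CPM in young CCCP and 20.7 CPM in young control, and this enters every ratio. Young control 3, with 29 Arntl reads, gave the highest young control ratio for Nr1d1, Nr1d2 and Per1. For Nr1d1 to Arntl the ratio ran from -4.95 to -0.33 in old Mito-Q, -1.64 to -0.20 in old control, -2.69 to -1.72 in young CCCP and -0.85 to 1.30 in young control. All young CCCP libraries thus lay below all young control libraries, while the old groups overlapped. For Nr1d2 to Arntl it ran from 0.06 to 2.43 in old Mito-Q, -1.41 to 0.07 in old control, -0.41 to 0.96 in young CCCP and 1.28 to 3.94 in young control, so young CCCP and old control both lay below young control.

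Dbp, the member of large amplitude in other mouse tissues, showed no such separation, but held only 0 to 102 reads per library. With so few reads an order could be missed, and its lowest ratios in old Mito-Q and young control rest on libraries with no Dbp read. Its log2 ratio to Arntl ran from -7.75 to -1.51 in old Mito-Q, -5.30 to -0.31 in old control, -3.02 to -1.17 in young CCCP and -4.91 to -0.07 in young control, with every group overlapping every other. Cry1 to Arntl ran from -2.89 to -0.52 in old Mito-Q, -2.0 to -1.51 in old control, -1.58 to -0.37 in young CCCP and -4.91 to 0.74 in young control. Per2 to Arntl ran from -1.26 to 2.10, -2.40 to 0.11, -2.81 to -0.19 and -0.91 to 1.45 in the same groups, and these overlapped too.

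**Figure D4:**
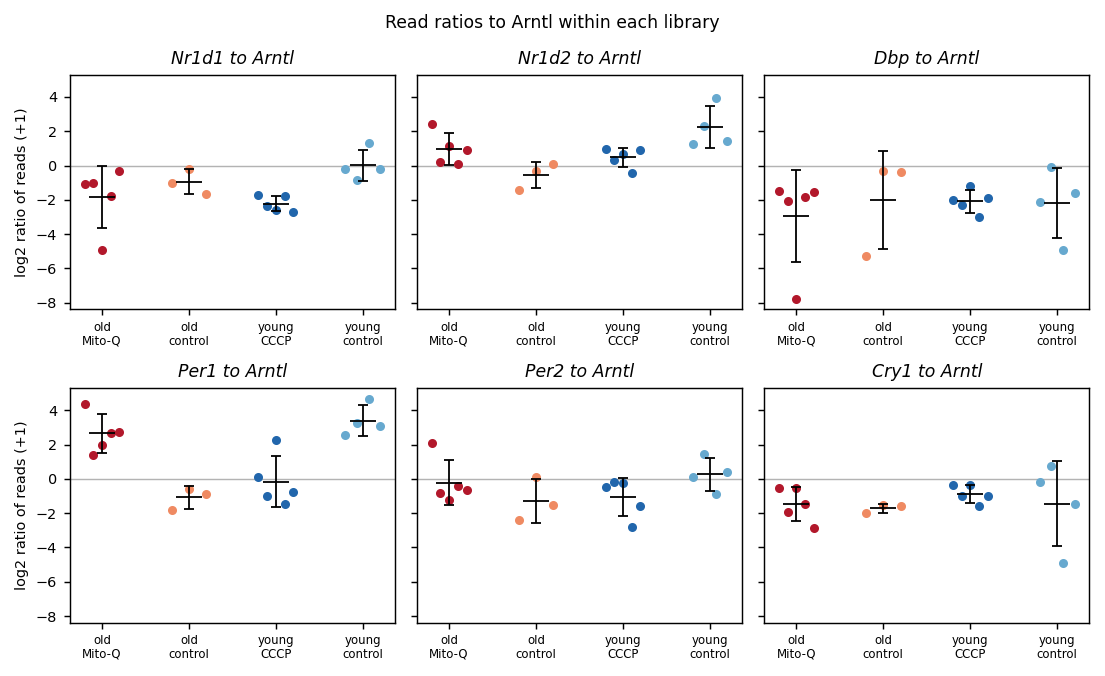
Log2 ratio of reads of 6 clock genes to reads of Arntl within each HSC library (y axis, pseudocount of 1 read), by group (x axis). Points are libraries, horizontal lines are means and bars are SD. Young CCCP lies below young control in the panels of Nr1d1, Nr1d2 and Per1, and all groups overlap in the panel of Dbp.

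Per1 to Arntl ran from 1.39 to 4.38 in old Mito-Q, -1.84 to -0.57 in old control, -1.47 to 2.27 in young CCCP and 2.54 to 4.68 in young control, the same order as the Per1 level itself. In young CCCP against young control the log2 fold changes were 1.13 for Arntl, -0.92 for Nr1d1, -3.38 for Ciart, -0.27 for Per2 and 0.38 for Dbp, of which Ciart was called. In old control against young control the same genes stood at 0.49, -0.38, -2.58, -1.43 and 0.35, and none was called. In old Mito-Q against old control they stood at 0.13, -0.17, 2.05, 1.27 and -0.49, and none was called. Nr1d2, outside this set, stood at -0.41 in young CCCP against young control and was not called. It was called at -2.21 in old control against young control and, near the threshold, at 1.69 in old Mito-Q against old control. Arntl and Nr1d1 had opposite signs in each of the 3 comparisons, none of them called. Dbp shared the sign of Arntl in young CCCP and in old control against young control, and Nr1d2 shared it in old Mito-Q against old control. In that last comparison, with 1 library left out, Arntl ran from -0.13 to 0.75 and Nr1d1 from -0.61 to 0.41. The sign of Arntl there also turned with library totals as the scaling (-0.0551). Since the hour of collection is not given, a difference in hour between groups and an effect of age or treatment cannot be told apart.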

How the data were processed

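Bulk RNA-seq of sorted HSCs gave 17 libraries in 4 groups taken from the labels. Reads were trimmed with Trim Galore and aligned to GRCm38 with STAR 2.7, per the submitters' processing notes. The authors deposited raw read counts per Ensembl gene and library, of which the first count column was used. The counting program, annotation release and strand setting are not given in the sources used here. Footer entries (reads without a feature, ambiguous or not unique) stayed out of library sizes and tests, and made up 37.7% to 76.2% of reads. GENCODE M21, of the same build, named 54723 of 54838 gene IDs, and start regions came from RefSeq (GRCm38.p6).

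Counts of all 17 libraries entered 1 model in edgeR 4.0.16 (R 4.3.3), after a low-count filter by group (filterByExpr, minimum count 10) and TMM scaling, with robust quasi-likelihood dispersions and without covariates. The 4 comparisons used the two-sided quasi-likelihood F-test with Benjamini-Hochberg adjustment over 24523 genes, called at adjusted p below 0.05. CPM carry TMM factors, and the SE of a fold change is its size over the square root of F. Ratios used a pseudocount of 1 read. The fit was tested on simulated data. Depth ran from 5649611 to 8120443 gene reads, and floors cover counting error only, since PCR reads are not independent molecules. No 2 libraries of a group were duplicates (chi-square over degrees of freedom of at least 20.9). Alternatives used DESeq2 1.42.0, limma 3.58.1 (voom), other scalings and filters, a replicate block, only the 2 groups compared, and libraries left out.

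The members and lists were chosen with earlier results of these data known. Named genes were all members, the 12 other core clock genes (1 is not reported here), called modifiers and outputs (at most 4 a list), Fos, Egr1, Nr4a1, Fkbp5, Tsc22d3, Zbtb16 and the 2 genes most like each member with a mean log2 CPM above 3 and no predicted or clone name. Dusp1 and the marker genes named as examples lie outside that rule and were chosen after their values were seen.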

Additional observations from a re-analysis of the deposited data

Results flagged for a closer look

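Of 30 sets of 1 member in 1 group of 4 or 5 libraries, 3 held a library far from the others, where chance flags about 1 in 20. Per1 in young CCCP replicate 3 was 108 CPM, against 22.3 to 37.9 CPM in the other 4 libraries of that group. Cry2 in young CCCP replicate 5 was 38.9 CPM, against 29.3 to 31.9 CPM in the other libraries. Cry2 in young control replicate 4 was 51.3 CPM, against 36.7 to 37.2 CPM in the other libraries. Groups of 3 (old control) were not examined in this way.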

How the results depend on the processing

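Per1 and Bhlhe40 kept their calls in old control against young control and in old Mito-Q against old control under every alternative run, and Bhlhe40 also in young CCCP against young control. There 1 member was called instead of 2 in a fit of only the 2 groups (Per1, edgeR adjusted p = 0.0728). Nr1d2 in old Mito-Q against old control lost its call with limma-voom (adjusted p = 0.198), upper-quartile factors (0.0783), library totals (0.0857), no filter (0.0721), only the 2 groups (0.0804) and the replicate block (0.0599). Members called under the alternatives that left out a library ran from 2 to 3 in old control against young control. Without young control 3 and young CCCP 3, which stood apart, 3, 3, 2 and 0 members were called in the 4 comparisons, with Per1 at -2.73 and Bhlhe40 at -3.96 in young CCCP against young control. The cause of these differences was not tested.

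Counts of called genes moved more than those of members. In old control against young control 415 genes were called, against 1260 with DESeq2, 186 with only the 2 groups, 1271 without young control 3 and young CCCP 3, and 125 to 684 with 1 library left out (125 without old control 2 and 684 without old control 1). In old Mito-Q against old control 133 were called, against 442 with DESeq2, 341 without those libraries and 79 to 142 with 1 left out. In young CCCP against young control 176 were called, against 556 with DESeq2, 324 with no filter and 111 with only the 2 groups. In old Mito-Q against young control 35 were called, against 181 with DESeq2, 54 with limma-voom, 90 with no filter, 68 without those libraries and 14 to 34 with 1 left out. Calls split 128 higher and 287 lower in old control against young control (553 and 707 with DESeq2, 190 and 237 with upper-quartile factors), 129 and 4 in old Mito-Q against old control (335 and 107 with DESeq2), 16 and 160 in young CCCP against young control (264 and 292) and 32 and 3 in old Mito-Q against young control (129 and 52). Over all genes the median fold change (log2) was 0.16, 0.25 and 0.28 with TMM, DESeq2 and upper-quartile factors in the first comparison and 0.21 and 0.33 with TMM and library totals in young CCCP against young control.

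No called member changed sign. Log2 fold changes that were not called and did change sign were, in old control against young control, Cry1 (limma-voom 0.22) and Dbp (without the 2 libraries -0.0454); in old Mito-Q against old control, Arntl (library totals -0.0551) and Clock (DESeq2 -0.000876, DESeq2 size factors -0.000957, upper-quartile -0.0187, library totals -0.0527). In young CCCP against young control they were Dbp (without the 2 libraries -0.00809) and Clock (limma-voom -0.14, upper-quartile -0.0430, no filter -0.0580, stricter filter -0.00885, replicate block -0.0746, without the 2 libraries -0.36), and in old Mito-Q against young control Per2 (limma-voom 0.0586, replicate block 0.0849) and Cry1 (limma-voom 0.55). With 1 library left out, the ranges that crossed 0 were, in old control against young control, Dbp -0.28 to 0.92, Arntl -0.14 to 0.81 and Clock -0.999 to 0.0770. In old Mito-Q against old control they were Nr1d1 -0.61 to 0.41, Dbp -1.07 to 0.13, Arntl -0.13 to 0.75 and Clock -0.32 to 0.75. In young CCCP against young control they were Dbp -0.0499 to 0.82 and Clock -0.29 to 0.18, and in old Mito-Q against young control Per1 -0.15 to 0.23, Per2 -0.54 to 0.0782, Cry2 -0.40 to 0.0616 and Dbp -0.55 to 0.30.

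The labels do not say that a replicate number marks a shared source. Over 22 pairs of libraries with the same number the correlation of deviations from the group means had a median of 0.11 (range -0.0761 to 0.33), against -0.01 over 85 pairs with different numbers. Of the 22, 12 were over 0.1, and the numbers were not taken to pair the samples, since the rule used asked for all of them to be. That rule cannot exclude a source or batch shared by some libraries of the same number, and the higher median leaves this open. With the replicate block 404, 130, 168 and 40 genes and 3, 2, 2 and 0 members were called in the 4 comparisons.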
